A study of Mus musculus with 23 samples.

Results

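The open chromatin at 8 CC chemokine genes, Ccl2, Ccl3, Ccl4, Ccl5, Ccl6, Ccl7, Ccl9 and Ccl12, was described in microglia of the mouse striatum. A region of open chromatin belonged to one of these genes when its centre lay in the gene body or within 20 kb of it on the mouse build GRCm38 (mm10), and it was assigned to the nearest of the 8. By that rule 33 of 49124 regions were members. The genes form 2 clusters on chromosome 11. Ccl2, Ccl7 and Ccl12 span 67.8 kb (chr11:82035577-82103399) and had 8 regions, and Ccl5, Ccl9, Ccl6, Ccl3 and Ccl4 span 139 kb (chr11:83525778-83664683) and had 25. Another 16 windows met the rule but had a peak in fewer than 3 of the 23 libraries, and they entered no test.

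The study measured chromatin accessibility by ATAC-seq, in which a transposase inserts sequencing adapters into exposed DNA, so that accessible stretches appear as peaks of reads. All mice were males aged 8 to 10 weeks, and cells were taken 18 h after an injection. Cells from the striatum, with the meninges removed, were sorted as live, CD11b+, CD45-low and P2RY12+. The 4 groups were offspring of dams with maternal immune activation given lipopolysaccharide (MIA_LPS, 5 libraries), control offspring given lipopolysaccharide (CON_LPS, 7), offspring of dams with maternal immune activation given saline (MIA_SAL, 6) and control offspring given saline (CON_SAL, 5). Lipopolysaccharide (LPS), a component of the bacterial outer membrane sensed through TLR4, was given into the peritoneum at 4500 endotoxin units per gram. The labels do not name the agent that activated the dams' immune system, the mouse strain, or whether each library was 1 animal. The p-values therefore measure the spread from library to library, which may be technical.

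CC chemokines are small secreted proteins that guide leukocytes along gradients by binding G protein-coupled receptors. Microglia and other myeloid cells make them after a TLR4 stimulus, through NF-kB, AP-1 and interferon regulatory factors that act at promoters and at more distant enhancers. CCL2, CCL7 and CCL12 are ligands of CCR2 on monocytes, CCL5, CCL3 and CCL4 attract T cells and macrophages, and CCL6 and CCL9, found in rodents, bind CCR1.

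The 300 bases around the start of transcription are shown for Ccl12, Ccl9, Ccl6 and Ccl3, the 4 member genes with an entry in the RefSeq promoter sequences of GRCm38.p6, because an open region covered each of these starts. Capitals mark matches to the motifs searched. Each sequence is given 5′ to 3′ on the strand of its gene.
Ccl12 promoter (chr11:82101595-82101894, plus strand): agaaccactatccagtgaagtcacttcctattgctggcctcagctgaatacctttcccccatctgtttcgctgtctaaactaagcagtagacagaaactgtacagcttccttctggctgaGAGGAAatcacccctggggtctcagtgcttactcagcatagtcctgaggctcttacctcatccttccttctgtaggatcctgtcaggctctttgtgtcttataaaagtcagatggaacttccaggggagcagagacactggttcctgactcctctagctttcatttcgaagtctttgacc
Ccl9 promoter (chr11:83578587-83578886, minus strand): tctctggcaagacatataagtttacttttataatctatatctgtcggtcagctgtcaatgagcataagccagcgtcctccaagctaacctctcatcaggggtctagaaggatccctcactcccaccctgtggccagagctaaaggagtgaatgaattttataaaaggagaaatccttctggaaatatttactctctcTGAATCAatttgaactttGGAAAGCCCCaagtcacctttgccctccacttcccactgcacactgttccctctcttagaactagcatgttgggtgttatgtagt
Ccl6 promoter (chr11:83593038-83593337, minus strand): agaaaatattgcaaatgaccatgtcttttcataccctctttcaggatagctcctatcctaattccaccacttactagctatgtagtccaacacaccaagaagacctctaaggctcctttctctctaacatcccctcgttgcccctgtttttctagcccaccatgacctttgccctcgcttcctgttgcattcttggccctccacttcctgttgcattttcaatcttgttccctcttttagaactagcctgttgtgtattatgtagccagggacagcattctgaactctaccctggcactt
Ccl3 promoter (chr11:83649329-83649628, minus strand): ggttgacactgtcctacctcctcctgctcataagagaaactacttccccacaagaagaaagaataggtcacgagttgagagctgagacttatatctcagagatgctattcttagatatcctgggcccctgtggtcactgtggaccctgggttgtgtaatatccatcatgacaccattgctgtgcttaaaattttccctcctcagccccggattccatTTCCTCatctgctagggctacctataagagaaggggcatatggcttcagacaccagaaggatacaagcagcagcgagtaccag

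The motifs were NF-kB, AP-1 (TGANTCA), PU.1 (GAGGAA), an interferon-stimulated response element and C/EBP (TTGCNNAA), searched on both strands, and no matches overlapped. The Ccl9 promoter held an NF-kB match from base 216 of the printed window, on the opposite strand, and an AP-1 match from base 198. The motif of PU.1, a factor needed for myeloid development, was matched from base 121 of the Ccl12 window and, on the opposite strand, from base 218 of the Ccl3 window. In the Ccl6 window none of the 5 motifs was matched. Over 32851 RefSeq promoters of the same length, 4.51% held the NF-kB motif, 7.81% AP-1, 28.3% PU.1, 3.44% the interferon element and 10.8% C/EBP. The longest run of bases shared by any pair of these windows was 13 bp, between Ccl9 and Ccl6, and the other pairs shared runs of 7 to 9 bp. The labels do not state the mapping filter that decides how reads from such related genes are placed.

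Deposited lists had 33949 to 68312 peaks per library, and each was shortened to its best 33949 by the authors' −log10 p, since depth is unknown here and list length can vary with it. A region was open in a library when the shortened list had a peak in it. The strength of a peak was its rank percentile within the library, from 100 for the highest −log10 p of the list to 0 for no peak. Of 10 microglia markers, 8 to 9 were open at a gene end in each LPS library and 7 to 9 in each saline library. Sall1, Tmem119, Cx3cr1, Siglech and Olfml3 were among those open in all 23, and Gpr34 was open in none. Of 10 markers of monocytes and neutrophils, 0 to 1 were open in an LPS library and 0 in every saline library, and 9 of them, Ccr2, Ly6c2, S100a9 and Mpo included, were open in no library. Of 7 markers of border-associated macrophages, 0 to 2 were open in an LPS library and 0 to 1 in a saline library, and Mrc1, Cd163, Lyve1, Pf4 and Ms4a7 were open in none. The median count of monocyte and neutrophil markers was 1 in both LPS groups and 0 in both saline groups. For border-associated macrophages it was 2 in both LPS groups and 1 in both saline groups, and for microglia 8 and 9. Of 9 lymphocyte markers, 1 to 2 were open in an LPS library and 0 to 2 in a saline library, and 7 were open in none. Markers of cells outside the myeloid lineage also had peaks: 1 to 3 of 9 neuron markers, 0 to 2 of 6 astrocyte markers, 2 to 3 of 7 oligodendrocyte markers and 1 to 2 of 4 endothelial markers were open in a library, Ppp1r1b of neurons, Cnp of oligodendrocytes and Kdr of endothelium in all 23. The part of these marker peaks in the results was not tested.

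Chromatin at the chemokine genes was open in the microglia of every group. Of the 33 regions, 13 (39.4%) were open in all 23 libraries, against 33.8% of all 49124 regions, and a single library had 17 to 28 of the 33 open. The highest ranks were at the lower end of Ccl2, 7501 bp below Ccl3 and just below Ccl12, where "below" and "above" stand for lower and higher chromosome positions. Their mean rank percentiles over the 23 libraries were 82.0, 81.8 and 73.5. Ccl5 had no region within 1 kb of either end of the gene. Its nearest region, 2877 bp above it, was open in 1 of 5 MIA_LPS, 1 of 7 CON_LPS, 1 of 6 MIA_SAL and 0 of 5 CON_SAL libraries.

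**Figure D1:**
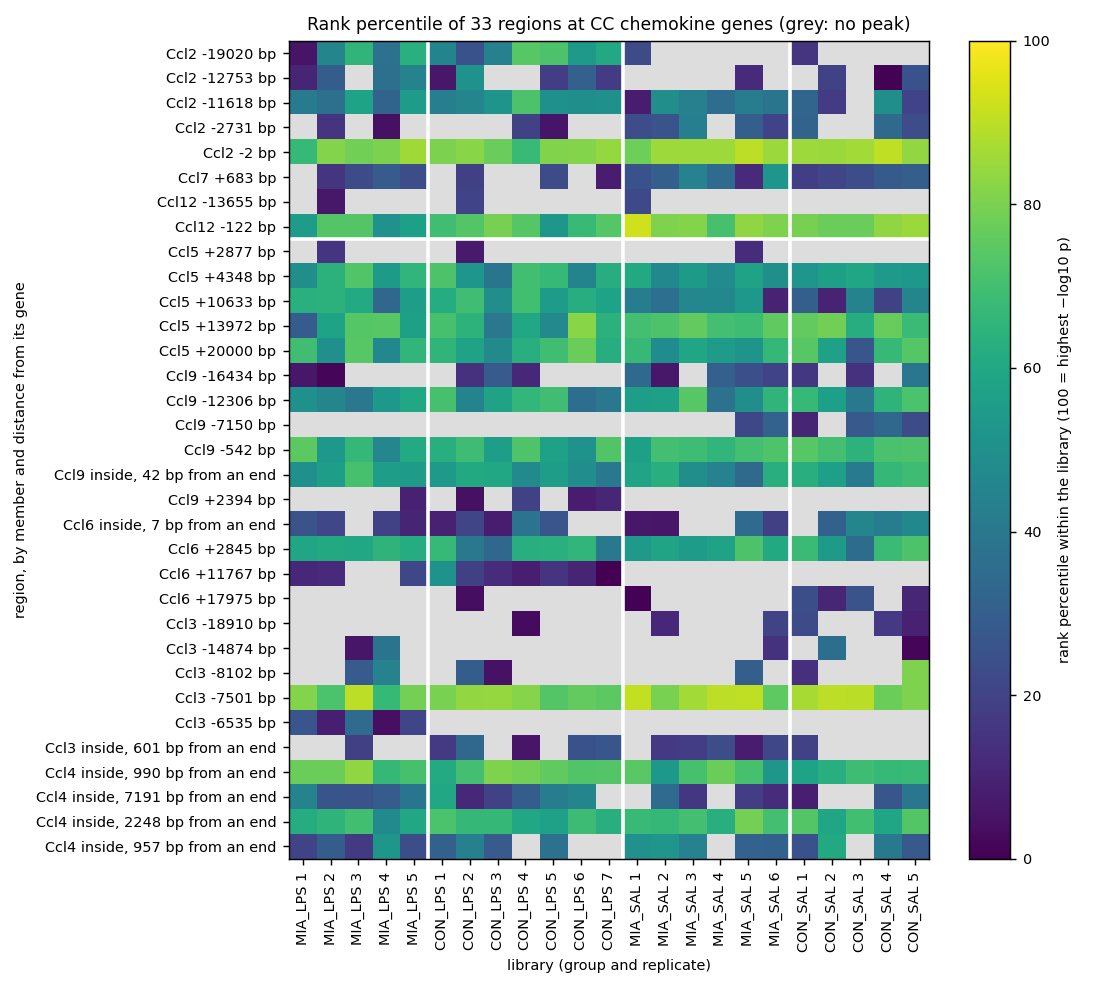
Rank percentile of each of the 33 regions (rows, named by gene and by the distance in bp below, −, or above it, +) in each of the 23 libraries (columns, by group). Grey cells have no peak; the 13 rows without grey are open in every library, and the top row, 19020 bp below Ccl2, is coloured in all 12 LPS libraries and in 2 of 11 saline libraries.

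LPS against saline was the comparison in which chemokine regions passed a test. By presence, tested over both prenatal groups with an exact conditional test and Benjamini-Hochberg (BH) adjustment over 17547 regions, 4 of the 15 member regions that could be tested passed an adjusted p of 0.05. The regions 19020 bp below Ccl2, 11767 bp above Ccl6 and 6535 bp below Ccl3 were open in more LPS libraries, and the region 7150 bp below Ccl9 was open in fewer. The share called over all tested regions was 23.7%, with 15.3% higher and 8.39% lower after LPS, so the members' count is near the background. In the shortened lists 3 of the 4 had peaks after 1 treatment alone, after LPS above Ccl6 and below Ccl3 and after saline below Ccl9. They reached the minimum of 3 libraries through the treatment in which they were higher. So did the region below Ccl2, with a peak in 12 LPS and 2 saline libraries. The calls of all 4, here and by rank, are therefore a description. By rank, tested with limma over all 49124 regions, 11 of 33 member regions passed, 5 with a higher and 6 with a lower rank after LPS. Over all regions 20.6% passed, 10.8% higher and 9.77% lower. With all deposited peaks in place of lists of equal length, 11 member regions again passed by rank, with 8 higher and 3 lower. In the presence test over all regions the share of calls that were higher was 64.5% with lists of equal length and 83.9% with all deposited peaks. The median rank difference, LPS minus saline, was −2.25 points over the 33 regions and −0.598 points over all regions. Each such difference is limma's mean of the differences in MIA and CON offspring, not the difference of averages over all libraries of a treatment.

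**Figure D2:**
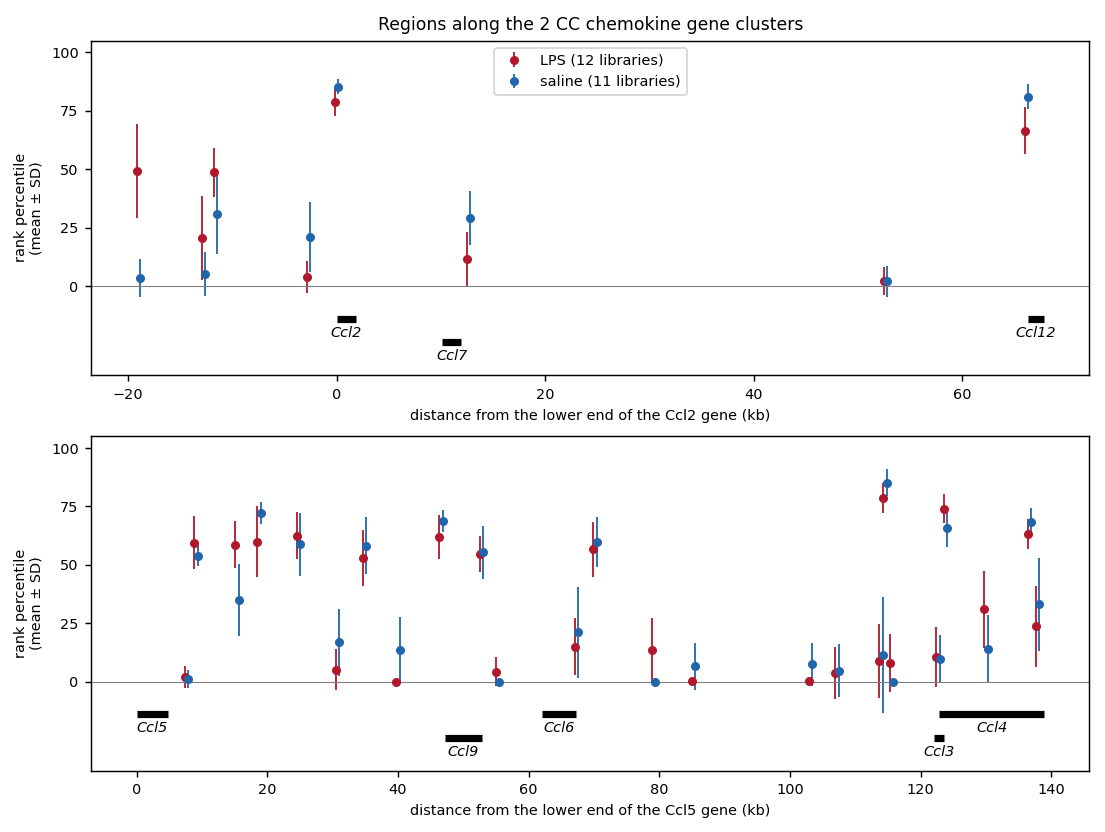
Mean rank percentile ± SD of each region after LPS (red, 12 libraries) and after saline (blue, 11 libraries) against its distance from the lower end of Ccl2 (upper panel) or of Ccl5 (lower panel), with gene bodies as black bars. The widest gap between the treatments is 19020 bp below Ccl2, with means of 49.3 after LPS and 3.49 after saline.

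Among the CCR2 ligands, Ccl2 had both the region that rose most after LPS and regions that fell. Ccl2 encodes the main chemoattractant of monocytes. The region 19020 bp below the gene (chr11:82016307-82016807) lay in no annotated gene and was open in 5 of 5 MIA_LPS and 7 of 7 CON_LPS libraries, against 1 of 6 MIA_SAL and 1 of 5 CON_SAL libraries. Its rank percentile was 5.73, 45.4, 65.5, 37.4 and 63.3 in MIA_LPS libraries, and ran from 25.2 to 74.0 with a median of 53.7 in CON_LPS libraries. After saline it was 23.2 in 1 MIA_SAL library and 15.2 in 1 CON_SAL library, and 0 in the other 9. All LPS libraries except 1 of MIA_LPS, at 5.73, were above every saline library. The rank differed by 45.0 ± 6.95 points between LPS and saline (SE; limma, BH-adjusted p = 3.27e-05), and the presence by 81.7 percentage points (exact conditional test, BH-adjusted p = 0.00199). With a peak in 2 saline libraries, the region met the minimum of 3 libraries through its LPS libraries, so both calls are a description. In the deposited lists before shortening, a peak was there in all 5 MIA_LPS and 7 CON_LPS libraries, and also in 4 MIA_SAL and 4 CON_SAL libraries, so in 6 saline lists the peak ranked below the best 33949. The authors' fold enrichment at the summit in those deposited lists was 4.84 to 11.0 in MIA_LPS, 4.59 to 8.63 in CON_LPS, 3.71 to 5.97 in MIA_SAL and 3.59 to 4.48 in CON_SAL libraries.

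The rank difference was as large within both classes of sorted cell number, 47.7 points in libraries of fewer than 20000 cells (limma, BH-adjusted p = 0.0112) and 46.2 points in libraries of 20000 or more (BH-adjusted p = 0.0272). With lists of 16974 peaks it was 14.4 points (BH-adjusted p = 0.0653). None of the saline libraries of 20000 or more cells had a peak there in the shortened lists, so the difference in that class could not be negative. The region met the minimum of libraries through its LPS libraries, so these values too are a description.

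Closer to Ccl2, the region 11618 bp below it was open in nearly all libraries and ranked higher after LPS. It stood at 41.4, 37.0, 57.8, 31.7 and 55.4 in MIA_LPS libraries and at 42.8 to 71.9 (median 50.2) in CON_LPS libraries. In MIA_SAL libraries it stood at 7.76 to 49.6 (median 40.6), and in CON_SAL libraries at 32.6, 17.9, 0, 49.6 and 20.2. The treatments overlapped widely. The difference was 18.0 ± 6.14 points (limma, BH-adjusted p = 0.0383), and 7 single libraries each ended the call when left out: MIA_LPS replicates 3 and 5, CON_LPS replicate 4, MIA_SAL replicate 1 and CON_SAL replicates 2, 3 and 5. The difference was then 15.0 to 17.5 points (BH-adjusted p = 0.0598 to 0.0766).

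The 2 regions nearest to Ccl2 moved the other way. At the lower end of the gene (centre 2 bp below it), a region open in all 23 libraries ranked at 66.99, 81.4, 78.7, 80.2 and 85.7 in MIA_LPS and at 67.3 to 84.0 (median 81.0) in CON_LPS libraries. In MIA_SAL libraries it ranked at 77.9 to 90.1 (median 85.3), and in CON_SAL libraries at 85.3, 84.9, 86.1, 90.3 and 83.7. It fell by 6.62 points after LPS (SE 2.06; limma, BH-adjusted p = 0.0230), with the ranges overlapping, and the call was lost without MIA_LPS replicate 1 (a fall of 5.17 points, BH-adjusted p = 0.05001). The region 2731 bp below Ccl2 was open in 2 of 5 MIA_LPS and 2 of 7 CON_LPS libraries, against 5 of 6 MIA_SAL and 3 of 5 CON_SAL libraries, and fell by 17.1 points in rank (SE 4.99; limma, BH-adjusted p = 0.0157). With all deposited peaks neither of the 2 passed (BH-adjusted p = 0.127 and 0.216).

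Ccl7 and Ccl12, which encode further monocyte attractants, had lower ranks at their gene ends after LPS. The single region of Ccl7, 683 bp above the gene, stood at 0, 15.2, 23.4, 28.6 and 23.7 in MIA_LPS libraries and at 0 to 23.1 (median 0) in CON_LPS libraries. After saline it was open in all 11 libraries, at 12.3 to 52.6 (median 32.6) in MIA_SAL and at 18.5, 21.0, 23.5, 28.5 and 30.1 in CON_SAL libraries. The treatments overlapped, and all 5 libraries without a peak were from LPS-treated mice. It fell by 16.2 points (SE 5.17; limma, BH-adjusted p = 0.0271). The call was lost without MIA_LPS replicate 1 (BH-adjusted p = 0.0654) and with all deposited peaks (BH-adjusted p = 0.332).

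The region at the start of Ccl12, centred 122 bp below it, covered the whole printed promoter and its PU.1 match. It was open in all 23 libraries. Its rank was 55.3, 73.1, 73.4, 50.5 and 56.4 in MIA_LPS and 53.1 to 79.4 (median 73.2) in CON_LPS libraries, against 71.0 to 92.6 (median 80.9) in MIA_SAL and 79.6, 77.5, 77.1, 83.5 and 85.0 in CON_SAL libraries. The treatments overlapped between 71.0 and 79.4. It fell by 15.2 points (SE 3.16; limma, BH-adjusted p = 0.000958), and passed with each single library left out (falls of 13.8 to 16.7 points). The fall was 23.7 points in libraries of 20000 or more sorted cells (BH-adjusted p = 0.00377) and 5.98 points in libraries of fewer (BH-adjusted p = 0.288). The other Ccl12 region, 13655 bp below it, was open in 1 MIA_LPS, 1 CON_LPS, 1 MIA_SAL and 0 CON_SAL libraries, and its rank difference was 0.239 ± 2.72 points (limma, BH-adjusted p = 0.965).

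**Figure D3:**
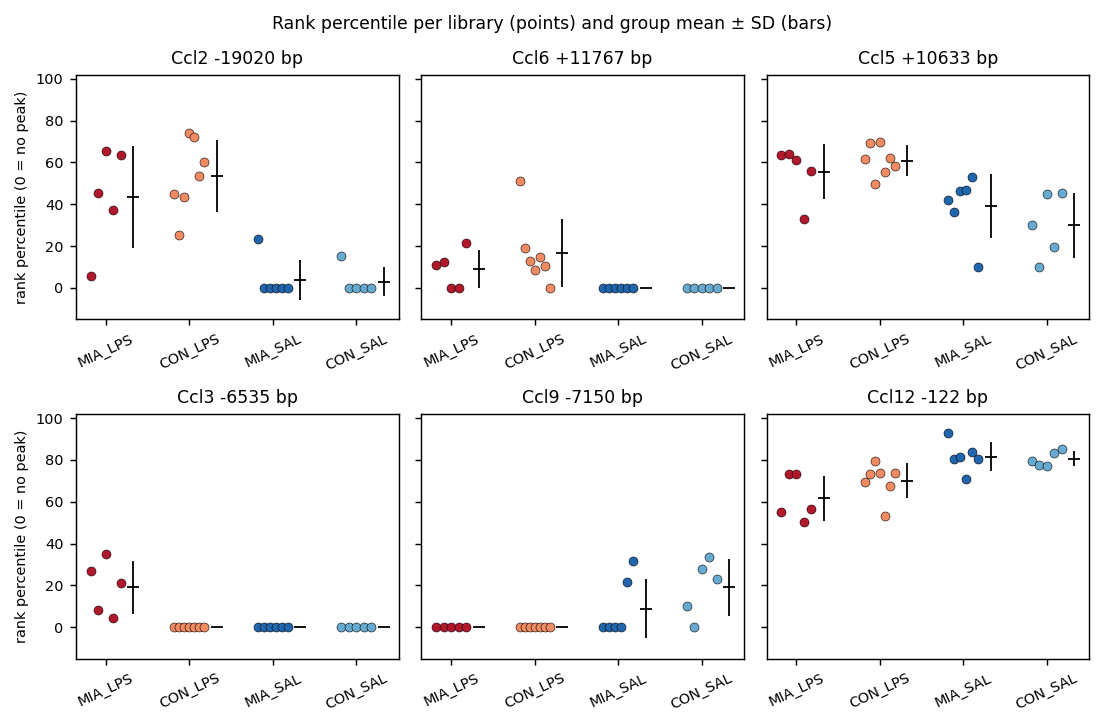
Rank percentile of 6 regions in each library (points) with the group mean ± SD (bars), for the groups MIA_LPS, CON_LPS, MIA_SAL and CON_SAL from left to right. The regions below Ccl2 and above Ccl6 and Ccl5 are higher after LPS, the region below Ccl3 has points above 0 in MIA_LPS alone, and the regions below Ccl9 and Ccl12 are lower after LPS.

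Of the attractants of T cells and macrophages, Ccl5 had regions on its upper side that were open in every library, and 1 of them rose. Its regions 4348, 10633, 13972 and 20000 bp above the gene were open in all 23 libraries, and the first 3 lay inside the long non-coding gene Gm32650. The one at 20000 bp was the outermost member region of the 33. At 10633 bp above Ccl5 the rank was 63.5, 64.1, 61.1, 32.8 and 56.0 in MIA_LPS and 49.6 to 69.9 (median 61.8) in CON_LPS libraries. It was 9.81 to 53.1 (median 44.1) in MIA_SAL and 30.2, 9.88, 44.9, 19.4 and 45.4 in CON_SAL libraries. Apart from 1 MIA_LPS library at 32.8 and 1 CON_LPS library at 49.6, the LPS libraries were above every saline library. The difference was 23.7 ± 5.66 points (limma, BH-adjusted p = 0.00355). It was 24.5 points in libraries of fewer than 20000 sorted cells (BH-adjusted p = 0.0450) and 27.5 points in the others (BH-adjusted p = 0.0780). The strongest Ccl5 region, 13972 bp above the gene, averaged 60.0 ± 15.3 after LPS and 72.2 ± 4.86 after saline (SD, n = 12 and 11) and did not pass (difference −12.5 ± 4.80 points, limma, BH-adjusted p = 0.0669).

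Ccl3 encodes macrophage inflammatory protein 1-alpha, and its strongest region, 7501 bp below the gene, was open in all 23 libraries. It averaged 78.6 ± 6.39 after LPS and 85.2 ± 5.79 after saline (SD, n = 12 and 11). It did not pass (difference −6.72 ± 2.52 points, limma, BH-adjusted p = 0.0610). Next to it, 6535 bp below Ccl3 (chr11:83641058-83641558), lay a region with a peak in 5 of 5 MIA_LPS libraries and in none of 7 CON_LPS, 6 MIA_SAL and 5 CON_SAL libraries. The ranks in MIA_LPS were 26.7, 8.37, 35.0, 4.28 and 21.0, in the lower part of the lists, and the authors' fold at the summit was 3.74 to 5.67. The region reached the minimum of 3 libraries through MIA_LPS alone. It is 1 of the regions counted as higher after LPS over both prenatal groups, by presence and by rank, but with no peak in any CON library the difference lay in MIA offspring alone. In the deposited lists before shortening, peaks were found there in 5 MIA_LPS, 2 CON_LPS, 2 MIA_SAL and 1 CON_SAL libraries, and the presence call was lost with all deposited peaks.

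The region inside Ccl3, 601 bp from an end of the gene, was open in 1 of 5 MIA_LPS and 5 of 7 CON_LPS libraries, and in 5 of 6 MIA_SAL and 1 of 5 CON_SAL libraries. The shares after LPS and saline thus lay in opposite orders in the 2 prenatal groups, and over both the rank difference was 0.378 ± 4.49 points (limma, BH-adjusted p = 0.966). The difference between the LPS responses was −22.4 ± 8.97 points and did not pass (limma, BH-adjusted p = 0.971).

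The start of Ccl3, in the printed window, was covered by a region centred at −236 bp relative to it. This region counts under Ccl4 because the RefSeq span of Ccl4, which encodes macrophage inflammatory protein 1-beta, includes it. It was open in all 23 libraries and averaged 74.1 ± 6.34 after LPS and 65.9 ± 8.16 after saline (SD, n = 12 and 11). The difference of 8.44 ± 3.14 points did not pass (limma, BH-adjusted p = 0.0588). Another region of the Ccl4 span, 7191 bp from its nearest end, was open in 5 of 5 MIA_LPS, 6 of 7 CON_LPS, 4 of 6 MIA_SAL and 3 of 5 CON_SAL libraries, with a difference of 16.998 ± 6.95 points (limma, BH-adjusted p = 0.0865). The Ccl4 region nearest to a gene end, at 957 bp, had a difference of −8.49 ± 7.99 points (limma, BH-adjusted p = 0.489). None of the 4 Ccl4 regions passed in any comparison.

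Ccl6 gained a region after LPS and had another that ranked lower, and Ccl9 lost a region. The region 11767 bp above Ccl6 (chr11:83604604-83605104), inside the long non-coding gene E230016K23Rik, was open in 3 of 5 MIA_LPS and 7 of 7 CON_LPS libraries, against 0 of 6 MIA_SAL and 0 of 5 CON_SAL libraries. Its rank was 11.0, 12.5, 0, 0 and 21.6 in MIA_LPS and 0.159 to 51.2 (median 12.8) in CON_LPS libraries. None of the 11 saline libraries had a peak, and neither did 2 of the MIA_LPS libraries. The presence differed by 80.0 percentage points over both prenatal groups (exact conditional test, BH-adjusted p = 0.00156), and the rank by 12.9 ± 4.15 points (limma, BH-adjusted p = 0.0281). It had no peak in any saline list even before shortening, where 4 of 5 MIA_LPS and 7 of 7 CON_LPS lists had one. It reached the minimum of 3 libraries through LPS libraries alone, so its tests use the group that selected it. The rank call was lost without MIA_LPS replicate 5 (11.3 points, BH-adjusted p = 0.0603).

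Ccl6 had a further region, 17975 bp above the gene, that was open in 0 of 5 MIA_LPS, 1 of 7 CON_LPS, 1 of 6 MIA_SAL and 4 of 5 CON_SAL libraries. Its rank in CON_SAL libraries was 23.8, 10.8, 25.6, 0 and 10.8, and it was at most 3.67 elsewhere. It fell by 6.91 points after LPS (SE 2.30; limma, BH-adjusted p = 0.0339), and the call was lost without MIA_LPS replicate 5, CON_SAL replicate 1 or CON_SAL replicate 3 (BH-adjusted p = 0.0502, 0.0648 and 0.0603). The response to LPS was −0.124 ± 3.31 points in MIA (limma, BH-adjusted p = 0.999) and −13.7 ± 3.20 points in CON offspring (BH-adjusted p = 0.00594). The difference of the 2 responses, 13.6 ± 4.61 points, did not pass (unadjusted p = 0.00691, BH-adjusted p = 0.971). This region reached the minimum of 3 libraries only through CON_SAL, so all of its tests use the group that selected it. The gene's own end, 7 bp from the centre of a region that covered 293 of the 300 printed bases, was open in 4 of 5 MIA_LPS, 5 of 7 CON_LPS, 4 of 6 MIA_SAL and 4 of 5 CON_SAL libraries. Its rank difference was −7.13 ± 6.24 points (limma, BH-adjusted p = 0.451). The strongest Ccl6 region, 2845 bp above the gene, was open in all 23 libraries with a difference of −2.37 ± 4.74 points (limma, BH-adjusted p = 0.771).

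At Ccl9, the region 7150 bp below the gene (chr11:83565517-83566017), inside the pseudogene Ccl16-ps, was open in 0 of 5 MIA_LPS and 0 of 7 CON_LPS libraries, against 2 of 6 MIA_SAL and 4 of 5 CON_SAL libraries. In saline libraries with a peak the rank was 21.7 and 31.5 in MIA_SAL and 10.3, 27.9, 33.7 and 23.3 in CON_SAL. It fell by 56.7 percentage points in presence (exact conditional test, BH-adjusted p = 0.0184) and by 13.9 points in rank (SE 3.95; limma, BH-adjusted p = 0.0128). It reached the minimum of 3 libraries through saline libraries alone. Peaks were found there in 3 MIA_LPS, 0 CON_LPS, 4 MIA_SAL and 4 CON_SAL deposited lists before shortening, and the presence call was lost with all deposited peaks (BH-adjusted p = 0.216). The region over the start of Ccl9, with the printed NF-kB and AP-1 matches in its window, was open in all 23 libraries. It averaged 54.6 ± 7.56 after LPS and 55.3 ± 11.3 after saline (SD, n = 12 and 11). It did not pass (difference −0.623 ± 4.28 points, limma, BH-adjusted p = 0.940). The strongest Ccl9 region, 542 bp below the gene, averaged 62.0 ± 9.37 after LPS and 68.8 ± 4.82 after saline (SD, n = 12 and 11) and did not pass (difference −7.16 ± 3.36 points, limma, BH-adjusted p = 0.139).

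The other 10 member regions passed in no comparison, with rank differences, LPS minus saline, of −11.9 to 15.5 points. They were open in 5 to 23 libraries.

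The number of sorted cells was under 20000 for some libraries of each group and 20000 or more for the others. All 11 regions called by rank kept their direction within both classes. At 11767 bp above Ccl6, 6535 bp below Ccl3 and 7150 bp below Ccl9 peaks came from 1 treatment alone, so their direction could not be the opposite. The regions 19020 bp below Ccl2 and 17975 bp above Ccl6 also met the minimum of 3 libraries through the libraries in which they were higher. The values of these regions within the classes are therefore a description. In the classes of fewer and of 20000 or more cells, the rank difference 11618 bp below Ccl2 was 26.5 and 5.67 points (limma, BH-adjusted p = 0.121 and 0.663). At 2731 bp below Ccl2 it was −11.1 and −24.3 points (BH-adjusted p = 0.488 and 0.00438), and at the end of Ccl2 −6.19 and −6.81 points (BH-adjusted p = 0.239 and 0.224). Above Ccl7 it was −12.1 and −22.8 points (BH-adjusted p = 0.364 and 0.124). At 7150 bp below Ccl9 it was −9.07 and −22.1 points (BH-adjusted p = 0.321 and 0.0335), and at 17975 bp above Ccl6 −9.68 and −2.71 points (BH-adjusted p = 0.0678 and 0.450). At 6535 bp below Ccl3 it was 10.8 and 8.66 points (BH-adjusted p = 0.0961 and 0.204), and at 11767 bp above Ccl6 8.17 and 18.2 points (BH-adjusted p = 0.184 and 0.183).

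Calls by rank were counted separately at gene ends and away from them. Of the 9 member regions within 1 kb of an end of a protein-coding gene, 0 passed with a higher and 3 with a lower rank after LPS, the regions at Ccl2, Ccl7 and Ccl12. The calls at Ccl2 and Ccl7 were lost with all deposited peaks and also without MIA_LPS replicate 1, as given above. Over all 14416 regions at gene ends, 4.36% passed with a higher and 6.22% with a lower rank. Of the 24 member regions away from gene ends, 5 passed with a higher and 3 with a lower rank, and over all 34708 such regions 13.4% passed higher and 11.2% lower. The median rank difference was −7.13 points over the 9 member regions at gene ends and −0.157 points over the 24 others, against −0.700 and −0.481 points over all regions of each kind. No test was made of these counts.

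MIA against CON offspring gave no call at any chemokine region. By presence over both treatments, 0 of 13 testable member regions passed (exact conditional test, BH), where 0.0% of 15264 tested regions passed. An unadjusted p under 0.05 was found in 2 of the 13 and in 410 of the 15264. After LPS alone and after saline alone, 0 of 4 and 0 of 4 member regions passed Fisher's exact test with BH adjustment, against 0.0% of all tested regions in each. After LPS 1 of the 4 had an unadjusted p under 0.05, against 130 of all 4224 tested regions. After saline 0 of the 4 had one, against 41 of all 4574. By rank, 0 of 33 passed (limma, BH), against 0.0% of all 49124 regions, with a smallest adjusted p of 0.930. Of all 49124 regions, 2494 had an unadjusted p under 0.05, and so had 2 of the 33. The 2 were the region 6535 bp below Ccl3, with MIA minus CON at 9.53 ± 2.63 points, and the region 17975 bp above Ccl6, at −7.31 ± 2.30 points. The region above Ccl6 reached the minimum of 3 libraries only through CON_SAL, so its values are a description.

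The region below Ccl3 was open in 5 of 5 MIA_LPS and 0 of 7 CON_LPS libraries, and before shortening in 5 of 5 MIA_LPS and 2 of 7 CON_LPS lists. It was among the regions tested through the MIA_LPS libraries alone, so these counts are a description, and it did not pass after adjustment over the 4224 regions of that comparison.

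The LPS responses of MIA and CON offspring were compared by rank. None of the 33 regions passed for the difference of the 2 responses (limma, BH, smallest adjusted p 0.971), against 0.0% of all regions. An unadjusted p under 0.05 was found in 2215 of all 49124 regions and in 3 of the 33. These 3 were the regions 6535 bp below Ccl3, 17975 bp above Ccl6 and inside Ccl3. The first 2 reached the minimum of 3 libraries only through 1 group, as given above. The response was larger in MIA offspring at 17 regions and smaller at 16, with a median difference of 0.127 points, and 0.483 points over all regions. At 19020 bp below Ccl2 the response was 39.6 ± 9.99 points in MIA and 50.4 ± 9.66 points in CON offspring (SE), which differed by −10.8 ± 13.9 points (limma, BH-adjusted p = 0.975). At 10633 bp above Ccl5 it was 16.4 ± 8.14 points in MIA and 30.9 ± 7.88 points in CON offspring, which differed by −14.5 ± 11.3 points (limma, BH-adjusted p = 0.971). At 6535 bp below Ccl3 it was 19.1 ± 3.78 points in MIA and 0 ± 3.65 points in CON offspring (difference 19.1 ± 5.26 points, limma, BH-adjusted p = 0.971), with the limit given above for this region. At the start of Ccl12 the response was −19.9 ± 4.54 points in MIA (limma, BH-adjusted p = 0.00486) and −10.6 ± 4.39 points in CON offspring, where it did not pass (BH-adjusted p = 0.137). The 2 responses there differed by −9.31 ± 6.32 points (BH-adjusted p = 0.971). These intervals are wide, and a p above the threshold does not show that the responses were alike.

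Within CON offspring alone, 1 of 3 testable member regions passed by presence (Fisher's exact test, BH), the region 11767 bp above Ccl6, where 12.4% of all tested regions passed, 9.92% higher and 2.52% lower. Within MIA offspring alone, 1 of 4 passed, the region 6535 bp below Ccl3, where 15.4% of all tested regions passed, 13.0% higher and 2.48% lower. Both regions reached the minimum of 3 libraries through LPS libraries alone, so both calls are a description. With 3 and 4 regions tested, these shares cannot be read against the background.

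**Figure D4:**
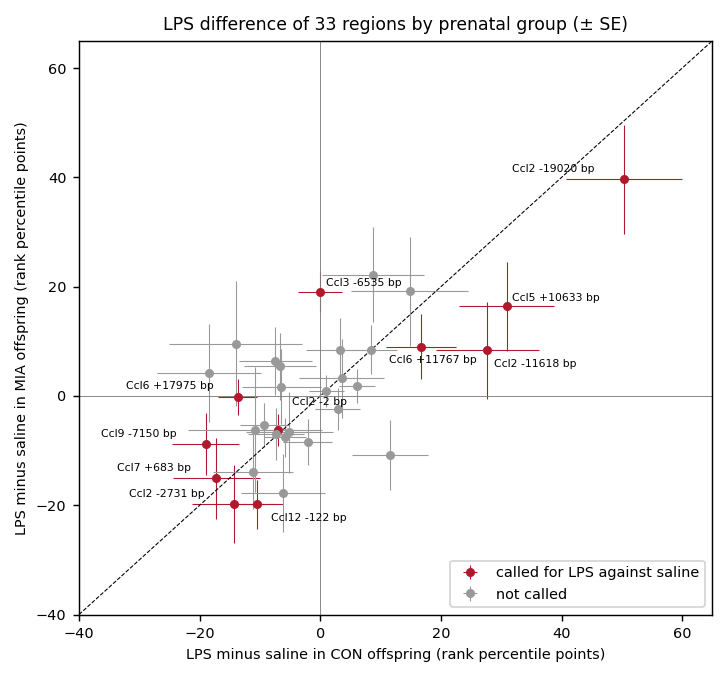
LPS minus saline difference in rank percentile of the 33 regions in MIA offspring (vertical axis) against CON offspring (horizontal axis), with SE bars; regions called for LPS against saline are red and the dashed line marks equal responses. Of the 11 called regions, 10 lie on the same side of 0 in both, the region 17975 bp above Ccl6 at −0.124 points in MIA and −13.7 points in CON offspring, and the region 6535 bp below Ccl3 stands at 19.1 points in MIA and 0 in CON offspring.

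Between the member genes but over 20 kb from each, 4 more regions were found. The nearest to the 20 kb limit, 23698 bp from Ccl6 (chr11:83616535-83617035) and inside E230016K23Rik, was open in all 23 libraries. Its rank was 74.7 to 89.3 (median 76.2) in MIA_LPS and 74.9 to 88.7 (median 79.0) in CON_LPS libraries, against 51.01 to 75.7 (median 68.5) in MIA_SAL and 55.2 to 73.2 (median 71.3) in CON_SAL libraries. LPS and saline libraries overlapped only between 74.7 and 75.7, and the difference was 13.2 ± 2.96 points (limma, BH-adjusted p = 0.00206). The LPS-gained region above Ccl6 lay in the same long non-coding gene. The other 3 were open in 3 to 10 libraries and passed in no comparison.

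The wider chemokine pathway was described from 3 lists, counting regions within 20 kb of each gene. Among 20 regulators of chemokine transcription, 15 of 55 testable regions (27.3%) were open in more LPS libraries and 0 in fewer (exact conditional test, BH), against 15.3% and 8.39% of all tested regions. Among their genes were Fos, Irf1, Irf7, Irf8, Nfkb1, Nfkbia, Nfkbiz, Rela and Spi1, which encode an AP-1 subunit, interferon regulatory factors, NF-kB subunits and inhibitors, and PU.1. By rank (limma, BH), 22 of their 154 regions (14.3%) were higher and 6 (3.90%) lower, against 10.8% and 9.77% of all regions. Among 12 CC chemokine receptors, 4 of 30 testable regions were open in more LPS libraries, at Ccr1, Ccr6 and Ccr7, and 4 in fewer, Ccr1 and Ccr6 among them, against the same 15.3% and 8.39%. By rank 6 of their 56 regions (10.7%) were higher and 12 (21.4%) lower, against 10.8% and 9.77%. Among 10 other CC chemokines, 2 of 12 testable regions, both at Ccl17, were open in more LPS libraries and 0 in fewer, and by rank 2 of 22 (9.09%) were higher and 2 (9.09%) lower, against 10.8% and 9.77%. No region of the 3 lists passed for MIA against CON or for the difference of the responses.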

How the data were processed

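ATAC-seq peak lists of 23 libraries were used, 1 list per library. The submitters' processing notes name MACS2, Bowtie2, cutadapt, SAMtools, Picard and DiffBind and the build mm10 (GRCm38), without versions or settings. The lists had no header, so columns were read from their values. The authors' deposited columns held the fold enrichment at the summit (a ratio), the −log10 p and −log10 q of each peak, and the position of its summit. No deposited −log10 q was under 1.301. Counts were not used, so depth is unknown. The labels do not state how transposase insertions were shifted.

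Each list was cut to its best 33949 peaks by −log10 p. Windows of 501 bp were centred on summits, the best-ranked kept first without overlap, and 49124 of 74287 windows with a peak in at least 3 libraries were kept. A region was open in a library when a peak covered at least 50% of it or lay at least 50% inside it. Presence was compared with exact conditional tests stratified by the other factor, or Fisher's exact test within 1 stratum, all two-sided, on regions whose number of open libraries allows p of 0.01 or less. Rank percentiles were compared with limma 3.58.1 (empirical Bayes with a trend, 4 group means; R 4.3.3). P-values were adjusted by Benjamini-Hochberg over all regions tested. Both procedures were run on simulated regions with libraries drawn independently. That simulation held no effect of identity number or list length, so it does not cover them.

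Gene positions came from RefSeq for GRCm38.p6 without strand, so gene ends are not told apart as starts except for the 4 promoters. All 8 member symbols and all genes of the 11 lists matched. A few genes of the lists are not reported here. The members, lists and tests were chosen with earlier results of these data known. Named with values were regions called in any comparison and, for each gene, the region nearest to an end, the region of highest mean rank and the region with the widest LPS difference in presence. Alternatives changed list length, threshold, ranking, overlap, minimum libraries, libraries used and model terms.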

Additional observations from a re-analysis of the deposited data

Results flagged for a closer look

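Of 51 sets of values from groups of 4 to 10 libraries, 7 held a library far from the others by Dixon's criterion, which chance alone meets in about 1 of 20 sets. At 10633 bp above Ccl5, MIA_LPS replicate 4 was lowest at a rank percentile of 32.8, with the next library at 56.0. At the start of Ccl9, MIA_LPS replicate 3 was highest at 70.8, with the next at 56.2. CON_LPS replicate 2 had 28 of the 33 chemokine regions open, with the next CON_LPS library at 23. CON_LPS replicate 4 was highest 11618 bp below Ccl2, at 71.9 with the next at 51.8, and lowest at the lower end of Ccl2, at 67.3 with the next at 77.1. At 11767 bp above Ccl6, CON_LPS replicate 1 was highest at 51.2, with the next at 19.1. At 11618 bp below Ccl2, MIA_SAL replicate 1 was lowest at 7.76, with the next at 35.7.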

How the results depend on the processing

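The count of 4 regions called by presence for LPS against saline was 1 at a −log10 q minimum of 5, 0 with fewer than 20000 sorted cells, 2 without the libraries of identity numbers 1 to 3, and 4 to 5 with single libraries left out. Within CON offspring the count of 1 was 0 with every region tested and at the −log10 q minimum, and 1 to 2 with single libraries left out. Within MIA offspring the count of 1 was 0 with every region tested, all deposited peaks, lists of 16974 peaks, the −log10 q minimum and ranking by fold, and 1 to 2 with single libraries left out. The rank count of 11 was 3 with lists of 16974 peaks, 3 at the −log10 q minimum, 6 with ranking by fold, 2 with fewer than 20000 sorted cells, 5 with 20000 or more, and 8 to 13 with single libraries left out. The causes were not tested. The cell classes hold fewer libraries than the whole set. Within 5 kb in place of 20 kb, 16 regions were members. Counts for MIA against CON and for the difference of responses were 0 in every setting that gave a value, and no named difference changed sign. Some presence tests had no testable member region within cell classes, with lists of 16974 peaks or without identity numbers 1 to 3. In 31 pairs of same-numbered libraries the deviations correlated at r −0.180 to 0.185 (median 0.0209, 8 over 0.1). In 166 pairs with other replicate numbers the median was −0.00533, with 14 over 0.1. These values do not settle whether replicate numbers pair libraries, and the main tests did not pair them. With a replicate block the rank counts were 11 for LPS, 0 for MIA and 0 for the difference of responses. The labels also give identity numbers, 14 over the 23 libraries, whose meaning they do not state. In 6 pairs of libraries from different groups with a shared identity number the deviations correlated at r 0.0286 to 0.156 (median 0.120, 4 of 6 over 0.1), against a median of −0.00509 in other pairs. With the identity number as a random block (consensus correlation 0.132) the rank counts were 13 for LPS, 0 for MIA and 0 for the difference of responses, and every named region called by rank for LPS passed again. Unknown depth limits all presence values.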
